A study of Rattus norvegicus with 8 samples.

Results

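KCNMA1 encodes the pore-forming alpha subunit of the BK channel, a potassium channel of large conductance that opens on depolarization and on a rise of intracellular calcium. In pituitary cells BK channels shape the action potential and the calcium entry that goes with it, and calcium entry drives hormone secretion. Auxiliary beta and gamma subunits set how strongly the channel responds to calcium and voltage. The KCNMA1 probe set is 1 of the 28295 probe sets in the deposited data. It was chosen by its ratio of the BRC-treated GH3 array to the GH3 control array, which equals the fold change printed for KCNMA1 in the study, and for the opposite direction of its response in the other cell line. Its values are therefore given as a description, without a test.

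RNA was taken from a pair of cell lines derived from rat pituitary tumours. GH3 cells produce both growth hormone and prolactin, and MMQ cells produce prolactin. Each line was profiled without drug, with bromocriptine (BRC), with cabergoline (CAB) and with CAB and BRC together (CAB+BRC), which gave 8 Affymetrix rat genome arrays and 1 array per condition. BRC and CAB are ergot derivatives that act as dopamine agonists. The labels give 50 μM for the single drugs, and the study's text gives 48 h for BRC in GH3 cells and for CAB in MMQ cells, each with its control. For CAB in GH3 cells and BRC in MMQ cells no time was given in the sources used, and for CAB+BRC neither dose nor time. The study's gene lists call the control cells untreated, and whether they received the solvent DMSO is not stated. The labels put GH3 cells in Ham's F10 and MMQ cells in F12 medium, while the order of names in the study's methods gives the reverse. Either way line and medium cannot be told apart.

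The probe set was found by its value because the row names of the deposited table did not go with the values. Exactly 1 probe set had the printed KCNMA1 ratio, with a relative difference of 6.8e-08, and the next nearest probe set was 0.017 away. Its row does not carry the name Kcnma1, and the 3 rows that do were not used. For 3971 gene names found on several rows, the median correlation over the 8 arrays between 2 rows of 1 name was 0.0179, against 0.00829 between rows of neighbouring names. The rows themselves held together across the lines. The GH3 and MMQ control arrays correlated at 0.905 over all probe sets, and LGALS3, for which the study prints a fold in each line, was found at the same row by both. The name KCNMA1 thus rests on the study's own list. Which KCNMA1 transcripts the probe set detects cannot be told. The auxiliary subunits of the BK channel, calcium channels, other potassium channels and the pituitary markers prolactin, growth hormone and dopamine receptor were not analysed here, because no row can be assigned to them.

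In GH3 cells KCNMA1 was higher with every drug treatment, and in MMQ cells it was lower with every drug treatment. In GH3 cells its intensity was 72.4 in the control, 233 with CAB, 262 with BRC and 252 with CAB+BRC. In MMQ cells it was 122 in the control, 26.5 with CAB, 62.9 with BRC and 35.5 with CAB+BRC. The 3 drug arrays of GH3 cells lay above both controls, and the 3 drug arrays of MMQ cells lay below both controls. On its array KCNMA1 was brighter than 57.6% of all probe sets in the GH3 control and than 81.5% with BRC. It was brighter than 68.5% in the MMQ control and than 37.0% with CAB. In these bulk samples, fewer cells that express the gene and less RNA per cell cannot be told apart.

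**Figure D1:**
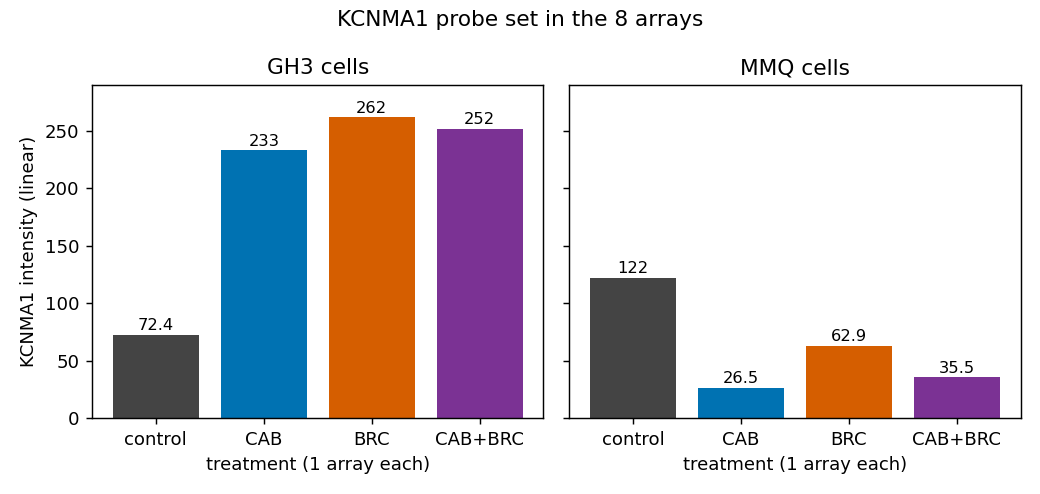
Intensity of the KCNMA1 probe set (linear axis from 0), 1 bar per array, with GH3 cells on the left and MMQ cells on the right. The drug arrays of GH3 cells lie between 233 and 262, above the control at 72.4, and those of MMQ cells between 26.5 and 62.9, below the control at 122.

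The order of the 8 levels, from the lowest, was MMQ with CAB, MMQ with CAB+BRC, MMQ with BRC, the GH3 control, the MMQ control, GH3 with CAB, GH3 with CAB+BRC and GH3 with BRC. With no replicate array, the only measure of spread in a line is how far the CAB+BRC array departs from the sum of both single drugs on the log2 scale. Over probe sets of like brightness this gave a spread for 1 pair of arrays of 0.341 in GH3 cells and 0.237 in MMQ cells (log2), which includes any true departure from a sum. Probe sets of like brightness were the 3894, KCNMA1 included, with a mean log2 level within 0.5 of the 6.62 of KCNMA1. All log2 values are of the intensity plus 1. The drug arrays of GH3 cells spanned 0.17, less than that spread. Those of MMQ cells spanned 1.21, more than the spread of that line.

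Against the GH3 control, the KCNMA1 intensity was 3.22-fold higher with CAB, 3.62-fold higher with BRC and 3.47-fold higher with CAB+BRC. All 3 pairs were past 2-fold, as were 1.27%, 0.951% and 0.873% of all probe sets in that direction in these pairs, in the same order. The BRC value is the one by which the gene was chosen. The other pairs use the same control array. As log2 differences they were 1.67, 1.84 and 1.78, with a mean of 1.77. Over the probe sets of like brightness the mean response had a median of -0.01 and a standard deviation of 0.400, and 4 of the 3894, KCNMA1 included, had a mean response at least as high.

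Against the MMQ control, the KCNMA1 intensity was 4.59-fold lower with CAB and 3.43-fold lower with CAB+BRC, where 1.37% and 1.13% of all probe sets were at least 2-fold lower. With BRC it was 1.93-fold lower, short of 2-fold. Only 0.141% of all probe sets were at least 2-fold lower in that pair, and 0.166% were as low as KCNMA1 or lower on the log2 scale. The log2 differences were -2.16 with CAB, -0.94 with BRC and -1.75 with CAB+BRC, with a mean of -1.62. The intensities with CAB (26.5) and CAB+BRC (35.5) were below the lowest median of an MMQ array, 45.9, so the size of these folds is less certain. With 16 rather than 1 added to the intensities, the mean was -1.31. Of the 3894 probe sets of like brightness, 3, KCNMA1 included, had a mean response at least as low. These 3 pairs share the MMQ control and use no array of the pair that identified the gene. KCNMA1 was also chosen for its opposite direction in MMQ cells, so they are not separate from that choice.

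The direction alone was common. All drug arrays lay above the control in GH3 cells and below it in MMQ cells for 237 of the 3894 probe sets of like brightness (6.09%), and for 6.86% of all 28295. The mirrored pattern, lower in GH3 and higher in MMQ cells, was found for 349 of the 3894 (8.96%). The same direction in both lines was found for 426 (10.9%) that were higher and 255 (6.55%) that were lower. Because the 3 pairs of a line share 1 control array, a control that stands apart moves all of them together.

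The size was uncommon. With at least 1.5-fold asked of each of the 6 pairs, KCNMA1 was the only 1 of the 3894 probe sets of like brightness in this direction (0.0257%). The other arrangements were also rare among these, with 1 mirrored, 3 higher in both lines and 1 lower in both. Over all brightness levels there were 4 in the direction of KCNMA1 (0.0141%) and 9 in the mirrored direction. With 2-fold asked of each pair KCNMA1 did not pass, and 1 of all 28295 probe sets did in its direction. The smallest of the 6 KCNMA1 log2 differences was 0.94 in size, that of BRC in MMQ cells. A single other probe set among all 28295 had every difference as large in the same orientation. It was brighter, with a mean log2 level of 7.54, and has no reliable gene name. In the mirrored orientation 2 did.

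The mean response in GH3 cells minus that in MMQ cells was 3.38 for KCNMA1 on the log2 scale, a 10.4-fold difference. This was the highest value of all 28295 probe sets, followed by 3.27 and 3.22. EGR1, described below, had a difference of 3.22, from mean responses of 1.92 in GH3 and -1.3 in MMQ cells. KCNMA1 was not the highest under every setting. With a pseudocount of 16 a total of 3 probe sets, KCNMA1 included, were at least as high, and without the CAB or without the BRC arrays 2 were. Among the probe sets of like brightness the next highest was 2.24 and the lowest -2.16, with a standard deviation of 0.464. In the opposite direction 2 probe sets of any brightness were at least as far from 0, the lowest at -3.98. KCNMA1 was proposed for this pattern, so its rank is a description of the arrays.

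**Figure D2:**
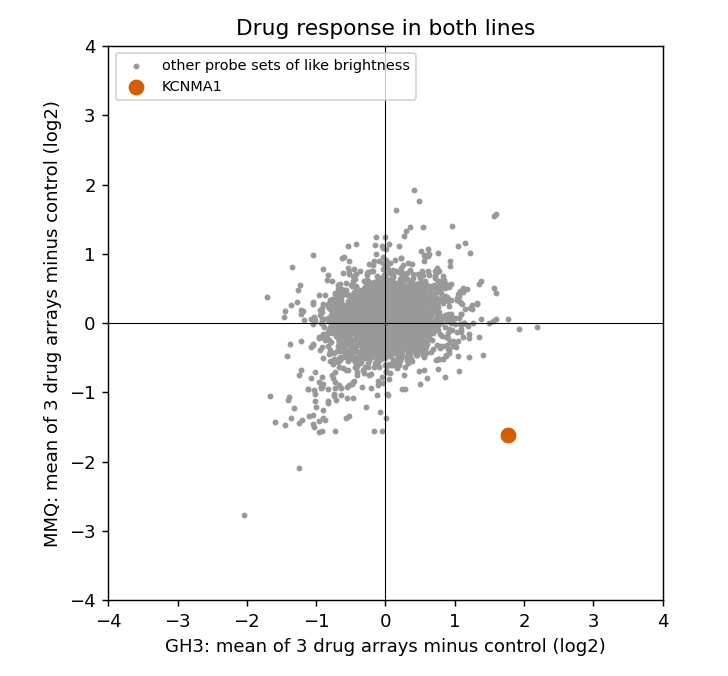
Mean log2 difference of the 3 drug arrays from the control in GH3 cells (horizontal axis) and in MMQ cells (vertical axis) for the 3894 probe sets of like brightness, 1 point per probe set. KCNMA1 (orange) lies at 1.77 and -1.62, in the lower right and away from the cloud of other probe sets (grey).

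The lines also differed before treatment. The KCNMA1 intensity was 1.68-fold higher in the MMQ control than in the GH3 control, a log2 difference of -0.74 for GH3 minus MMQ, and 14.7% of the probe sets of like brightness were at least as far apart in that direction. With drug the order was turned. GH3 cells were 8.79-fold higher than MMQ cells with CAB, 4.17-fold higher with BRC and 7.09-fold higher with CAB+BRC. Averaged over the drug arrays, which leaves both controls out, the line difference was 2.64 (log2), and 132 of the 3894 probe sets of like brightness (3.39%) had one at least as high. KCNMA1 was chosen for its response against the controls, so how rare that response is cannot be set against this share.

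With CAB+BRC, KCNMA1 lay nearer to its control than the sum of the single-drug differences. In GH3 cells the log2 differences of CAB and BRC summed to 3.51, whereas CAB+BRC was at 1.78, a departure of -1.73. With BRC already present, CAB changed KCNMA1 by -0.06, and with CAB present BRC changed it by 0.11, both less than the spread of a pair. Of the probe sets of like brightness 40.3% and 35.8% had differences at least as large in the same direction. In MMQ cells the single drugs summed to -3.10, whereas CAB+BRC was at -1.75, a departure of 1.35. With BRC present, CAB gave a log2 difference of -0.81, the same direction as against the control. With CAB present, BRC gave 0.41, the direction opposite to that against the control. The first was reached by 3.24% and the second by 11.9% of the probe sets of like brightness. The departures had a standard deviation of 0.482 in GH3 and 0.335 in MMQ cells over these probe sets. A departure at least as large as that of KCNMA1, of either sign, was found for 0.385% of them in GH3 and 0.334% in MMQ cells. Probe sets of like brightness with a large mean response in GH3 cells commonly had a GH3 departure of opposite sign and similar size. A large GH3 departure is thus not particular to KCNMA1. In MMQ cells the departures of strong responders were less regular. The GH3 departure contains the control and BRC arrays by which the gene was chosen, so it is no measure separate from the response, and the MMQ departure likewise contains the MMQ control.

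**Figure D3:**
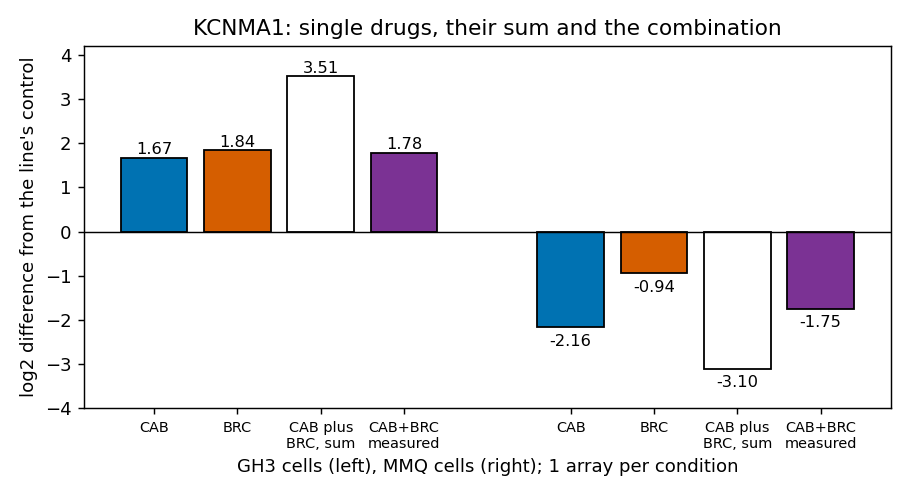
KCNMA1 log2 difference from the control of the line with CAB, with BRC, as the sum of both (white bars, computed) and as measured with CAB+BRC, for GH3 cells (left) and MMQ cells (right), 1 array per condition. The measured combination, at 1.78 and -1.75, lies nearer to 0 than the sums at 3.51 and -3.10 and close to the single drugs in GH3 cells.

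An additive fit with limma, which has 1 effect per drug in each line, averages each drug's pair against the control with its pair in the presence of the other drug. For KCNMA1 the log2 effect in GH3 cells was 0.81 for CAB and 0.98 for BRC, and in MMQ cells it was -1.48 for CAB and -0.27 for BRC, each with a standard error of 0.449. The error is shared because both lines enter 1 spread, which rests on 2 residual degrees of freedom and on the other probe sets. These 2 degrees of freedom are the departures of CAB+BRC from the sum in each line, so any true departure adds to the error. Each estimate had the sign of its pair against the control but was smaller, since the pairs without the control were smaller or turned. Leaving out an array of a line leaves each of its drugs 1 pair. The CAB effect in GH3 cells was -0.06 without the control or the CAB array and 1.67 without the BRC or the CAB+BRC array. The BRC effect in GH3 cells was 0.11 without the control or the BRC array and 1.84 without either of the others. In MMQ cells the CAB effect was -0.81 without the control or the CAB array and -2.16 without either of the others. The BRC effect in MMQ cells was 0.41 without the control or the BRC array and -0.94 without either of the others.

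Both drugs can be set side by side at 50 μM in each line, with the times of the GH3 CAB and MMQ BRC arrays unknown. In GH3 cells KCNMA1 was 1.12-fold lower with CAB than with BRC, a log2 difference of -0.17 (95% interval -1.70 to 1.36 from the limma fit). In MMQ cells it was 2.37-fold lower with CAB than with BRC, a log2 difference of -1.21 (95% interval -2.74 to 0.313). Their width rests in part on the departures of KCNMA1 from the sum (-1.73 in GH3 and 1.35 in MMQ cells), so it is not array error alone. The intervals are given as a description, since the GH3 BRC array is one by which the gene was chosen. Of the probe sets of like brightness, 2.31% were at least as much lower with CAB than with BRC in MMQ cells.

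Among 8 genes that were identified by their BRC fold in GH3 cells, all higher there by that choice, KCNMA1 and BLNK were the 2 that lay below the MMQ control in every drug array. BLNK, which encodes an adaptor protein downstream of the B cell receptor, was dim in MMQ cells, with an intensity of 10.3 in the control, 7.98 with CAB, 7.10 with BRC and 8.26 with CAB+BRC. With CAB in MMQ cells, KCNMA1 and EGR1 were the 2 of the 8 at least 2-fold lower than the control, as were 1.37% of all probe sets. KCNMA1 was chosen for its direction there. Of the 8, 5 were higher with CAB. With BRC in MMQ cells, 4 of the 8 were higher than the control. The shares of all probe sets that were higher in these pairs are not given. In every drug array of GH3 cells, 1253 probe sets of like brightness lay above the control. Of these, 237 lay below the MMQ control in every drug array, as did 19.2% of all probe sets of like brightness. Over all 28295 probe sets of any brightness, 24.2% lay below the MMQ control in every drug array. Nothing is read from any of these counts among the 8.

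Over the 8 arrays, EGR1 had the highest Pearson correlation with KCNMA1 among the 19 other genes identified by a printed fold, at 0.91. EGR1, an immediate early transcription factor, was at 413 in the GH3 control, 791 with CAB, 2037 with BRC and 2390 with CAB+BRC, and at 256 in the MMQ control, 42.4 with CAB, 521 with BRC and 49.3 with CAB+BRC. It went with KCNMA1 in 5 of the 6 treated arrays, of which GH3 with BRC was fixed by how both genes were identified. The share of all probe sets that do so is not given. In all 6 treated arrays, 6.86% of all probe sets went with KCNMA1, and the arrays of a line share 1 control. Nothing is read from this count. In MMQ cells with BRC the directions differed, with a log2 difference of 1.02 for EGR1 and -0.94 for KCNMA1. BLNK followed at 0.86, LGALS9, a galectin, at 0.85, and ASTN1, an astrotactin of neurons, at 0.83. Each of these 3 had higher intensities in the drug arrays of GH3 cells than in any MMQ array. LGALS9, for example, was between 11.6 and 15.4 in MMQ cells and between 127 and 154 in treated GH3 cells. With each line centred on its mean, so that the line difference does not count, the correlations were 0.80 for EGR1, 0.75 for BLNK, and 0.60 for both LGALS9 and ASTN1. The lowest correlations over the 8 arrays, -0.84 each, were those of MVD, an enzyme of the mevalonate pathway, and CCL7, a chemokine. MVD was at 259 in the MMQ control and 1698 with CAB, and CCL7 at 33.3 and 205. With each line centred, the correlations were -0.64 for MVD and -0.62 for CCL7. Their mean log2 responses in GH3 cells were -0.1 and 0.04. With BRC in MMQ cells MVD was lower than the control, as KCNMA1 was, with a log2 difference of -0.39. The 8 points share 2 lines and 2 controls, and 205 probe sets (0.725%) correlated with KCNMA1 at 0.9 or more, so such a correlation is not particular to EGR1.

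**Figure D4:**
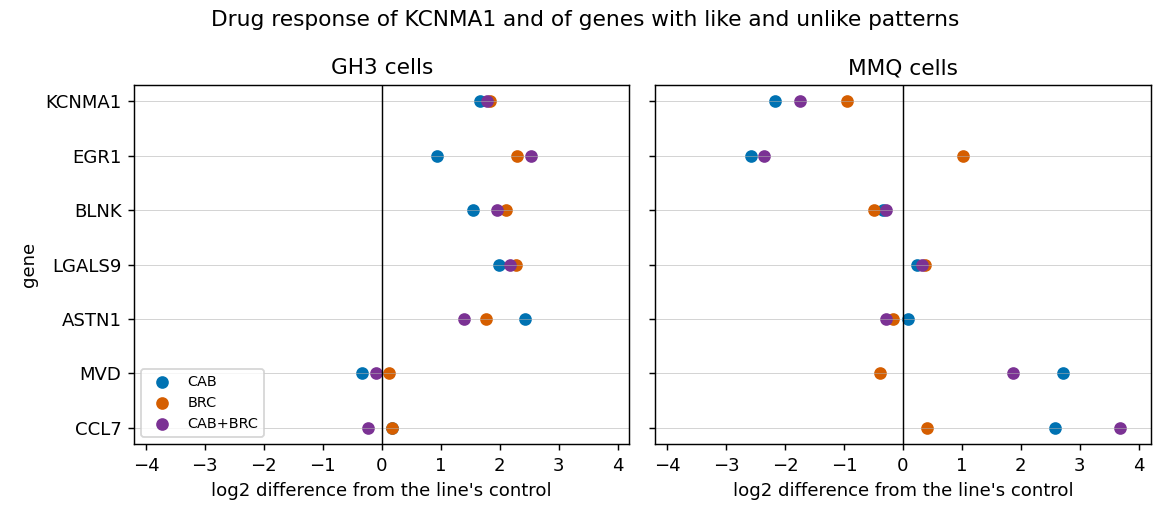
Log2 difference from the control of the line with CAB, BRC and CAB+BRC for KCNMA1, the 4 genes most like it and the 2 least like it by correlation over the 8 arrays, with GH3 cells on the left and MMQ cells on the right, 1 point per array. KCNMA1 is the gene plotted whose 3 points lie between 1.67 and 1.84 in GH3 cells and between -2.16 and -0.94 in MMQ cells.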

How the data were processed

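The authors hybridized biotin-labelled RNA to Affymetrix rat genome arrays and took signal values from the Command Console software of the manufacturer. They deposited 1 linear intensity per probe set and array. Summarization, background correction and normalization were not given in the sources used here. Array medians were between 48.4 and 49.9 in GH3 cells and 45.9 and 47.6 in MMQ cells, so no further scaling was applied. The number of arrays limits the precision.

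KCNMA1 and 19 other genes were located by their printed folds within a relative tolerance of 1e-06. Single results of 3 further genes are not reported here. Log2 of the intensity plus 1 was used for all 28295 probe sets. A probe set was counted as past 2-fold at a log2 difference of at least 1. The additive model was fitted with limma 3.58.1 in R 4.3.3 (lmFit, eBayes) to the 14147 brighter probe sets, those whose mean log2 level exceeded the median. The scripts were tested on simulated data. Besides KCNMA1, the genes named were the 4 with the highest and the 2 with the lowest correlation with it and any other with the same opposite response; DDIT3 was added after its values were seen. The members and lists were chosen with earlier results of these data known. Alternatives were quantile normalization, median centring, pseudocounts of 0 and 16, other brightness bands, a 1.5-fold minimum, no filter on dim probe sets and leaving out arrays.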

Additional observations from a re-analysis of the deposited data

Results flagged for a closer look

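KCNMA1 responded in opposite directions in the lines. All 3 drug arrays lay above the control in GH3 cells and below it in MMQ cells, with a difference of 3.38 between the mean log2 responses. The same arrangement was seen for BLNK, with a difference of 2.24, where the MMQ intensities were at most 10.3. DDIT3, which encodes the stress-induced transcription factor CHOP and was added after its values were seen, showed the mirrored arrangement, with a difference of -3.18. Its correlation with KCNMA1 was -0.14 over the 8 arrays and -0.84 with each line centred on its mean. With lines centred, 162 probe sets (0.573%) correlated with KCNMA1 at -0.9 or lower. The differences in response between the lines were not tested, since each condition has 1 array.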

How the results depend on the processing

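The mean KCNMA1 response stayed above 0 in GH3 cells (1.58 to 1.81) and below 0 in MMQ cells (-1.95 to -1.31) under quantile normalization, median centring, pseudocounts of 0 and 16 and without the CAB, the BRC or the CAB+BRC arrays, and the difference between the lines was 2.89 to 3.68. Leaving out drug arrays or changing the pseudocount could not turn these signs, since every drug array differed from its control in that direction. None of these settings left out a control array, which all pairs of a line share. The MMQ response moved by more than the spread of a pair with a pseudocount of 16 (-1.31, with a line difference of 2.89), without the CAB arrays (-1.35) and without the BRC arrays (-1.95). The share of like-brightness probe sets with the pattern was 13.0% without the CAB arrays and 10.1% without the BRC arrays, where fewer arrays have to go the same way, and 0.0257% with a 1.5-fold minimum. The number of probe sets with a line difference at least that of KCNMA1, itself included, was 3 with a pseudocount of 16 and 2 without the CAB or without the BRC arrays (a count added after seeing the data). In the additive fit with 1 array left out, the CAB effect in GH3 cells was between -0.06, without the GH3 control or the GH3 CAB array, and 1.67, and the BRC effect in MMQ cells between -0.94 and 0.41, the latter without the MMQ control or the MMQ BRC array. The BRC effect in GH3 cells ranged from 0.11 to 1.84 and the CAB effect in MMQ cells from -2.16 to -0.81.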
